A study of Homo sapiens with 12 samples.

Results

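EEA1 and 9 other genes of early endosome tethering were followed in U87, an established human glioblastoma cell line, treated for 72 h with 3α-THP (allopregnanolone, 10 nM), F (finasteride, which inhibits 5α-reductase, 100 nM), P4 (progesterone, 10 nM) or V (vehicle, DMSO). The group held EEA1, RABEP1, RABEP2, RUFY1, ZFYVE9, ZFYVE16, the fusion factor VPS45 and the small GTPases RAB5A, RAB5B and RAB5C. Each was taken from the only row of the table annotated to that gene alone, so these are 10 of 18417 genes with a row of their own. EEA1 heads the group because its difference from V was already known from these arrays, and its values are a description without a test. The other 9 genes were listed for their role beside EEA1.

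RNA came from 3 samples per treatment, hybridized to 12 arrays (Affymetrix Human Gene 1.0 ST). Cells were held in phenol red-free medium with stripped serum before treatment, V included, and a single cell line stands for the tumor. V was 0.1% DMSO in GEO's characteristics and in the methods, while GEO's treatment protocol has 10%. The deposited values are log2 levels of a transcript cluster, the set of probes along a gene. Array medians over the 21214 tested clusters ran from 6.35 to 6.40. VIM and CD44, abundant in mesenchymal glioma lines, averaged 12.49 and 11.85, but 6 of 9 glial and glioma markers were under the median cluster, with GFAP at 6.17, SOX2 at 4.09 and AQP4 at 2.93. All 11 measured markers of other cell types were under it too. On the log2 scale, the summed level of the glial and glioma markers was 13.23 to 13.43 with 3α-THP, 13.27 to 13.44 with F, 13.27 to 13.42 with P4 and 13.30 to 13.40 with V, and that of the other cell types 8.22 to 8.28 with 3α-THP, 8.23 to 8.26 with F, 8.21 to 8.23 with P4 and 8.11 to 8.29 with V. VIM and CD44 made up most of the glial and glioma sum, so it tells little of the dimmer markers. No single marker of these lists passed a fold of 1.5. The neuronal gene SYT1 differed from V by 0.31 with 3α-THP, 0.22 with F and -0.04 with P4, and the neuronal gene RBFOX3 by 0.15, 0.33 and 0.33 (limma, adjusted p of 0.611 or higher). The part of either in the results below was not tested. The first principal component held 37.0% of the variance of the tested clusters. On it, 88.2% of the spread went with the replicate number and 4.21% with the treatment, so differences within each number are given beside the means.

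Early endosomes receive the vesicles that bud from the plasma membrane and sort their cargo toward recycling or degradation. Rab5 in its GTP-bound form marks their membrane and recruits the kinase that makes phosphatidylinositol 3-phosphate (PI3P). EEA1, a long coiled-coil dimer, binds Rab5 and, through a FYVE zinc finger, PI3P, and so holds incoming vesicles near the endosome, while SNARE proteins and their partner VPS45 act in fusion.

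EEA1 was higher with 3α-THP and with F than with V, and its mean with P4 lay between. Its log2 values were 7.50, 7.82 and 8.19 with 3α-THP, 7.90, 7.03 and 8.31 with F, 6.50, 6.95 and 7.55 with P4, and 6.55, 7.07 and 6.39 with V, in the order of replicates 1, 2 and 3. All 3 arrays with 3α-THP lay above all 3 V arrays. With F, replicates 1 and 3 lay above every V array, while replicate 2 was just under its own V array. With P4, replicates 1 and 2 lay within the range of V and replicate 3 above it. The means were 7.84 ± 0.35 with 3α-THP, 7.74 ± 0.65 with F, 6.999 ± 0.53 with P4 and 6.67 ± 0.36 with V (SD, n = 3 each). In this order 3α-THP and F, and P4 and V, differed by less than their SDs, while the step of 0.74 between F and P4 exceeded the SD of each.

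The difference of 3α-THP from V was 1.17 on the log2 scale (SE 0.32), a fold of 2.25, and within replicates 1, 2 and 3 it was 0.95, 0.76 and 1.81. The difference of F from V was 1.08 (SE 0.32), a fold of 2.11, and within the replicates it was 1.35, -0.04 and 1.92. F thus stood level with V in replicate 2. The difference of P4 from V was 0.33 (SE 0.32), and within the replicates it was -0.05, -0.12 and 1.16. Replicate 3 carried it, and without that P4 array it was 0.06. Replicate 3 also held the largest differences with 3α-THP and F, and its V array was the lowest of the 12. The 3 differences share the V arrays.

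**Figure D1:**
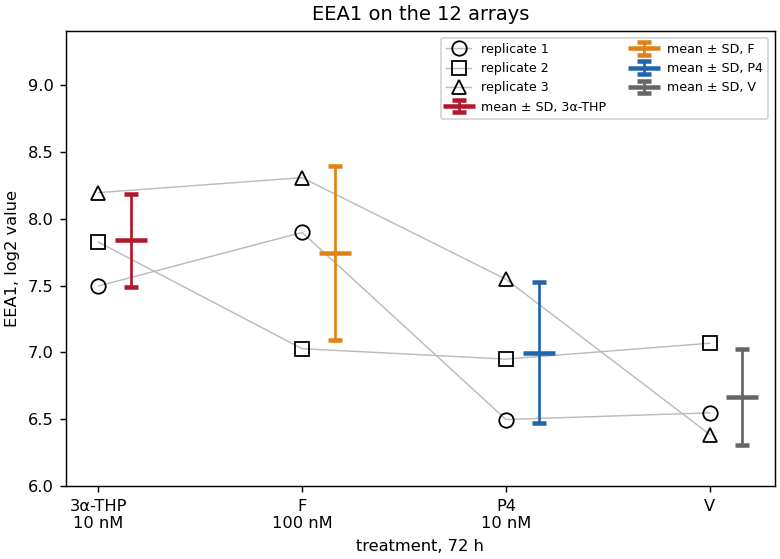
EEA1 log2 value (vertical axis) on each array by treatment (horizontal axis), with gray lines joining arrays of the same replicate number and colored bars for the mean ± SD (n = 3). The 3α-THP arrays lie between 7.50 and 8.19, above the V arrays at 6.39 to 7.07, and F replicate 2 lies at 7.03.

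A gene was counted as changed when it passed the threshold of the study in limma, a fold over 1.5 together with p under 0.05 before adjustment, in a model fitted to all 21214 clusters. With 3α-THP against V, 1 of the 10 genes passed, EEA1, beside 0.679% of all tested clusters. With F it was again EEA1, 1 of 10, beside 0.396%, and with P4 0 of 10, beside 0.0236%. EEA1 was chosen by this difference, so nothing can be read from its count. Of the other 9 genes 0 passed with any of the 3 treatments, and their adjusted p in limma ran from 0.608 to 0.993 with 3α-THP and was 0.999 or higher with F and P4. With no limit on the fold, an unadjusted p under 0.05 was met by 1 of the 9 with 3α-THP (ZFYVE16), beside 7.34% of all clusters, and by 0 with F or P4, beside 4.69% and 1.82%. The median difference of the 10 genes was 0.02 with 3α-THP, 0.00 with F and -0.02 with P4, beside -0.03, -0.02 and -0.01 over all tested clusters. RNA of whole cultures does not tell fewer cells holding a transcript from less of it per cell.

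**Figure D2:**
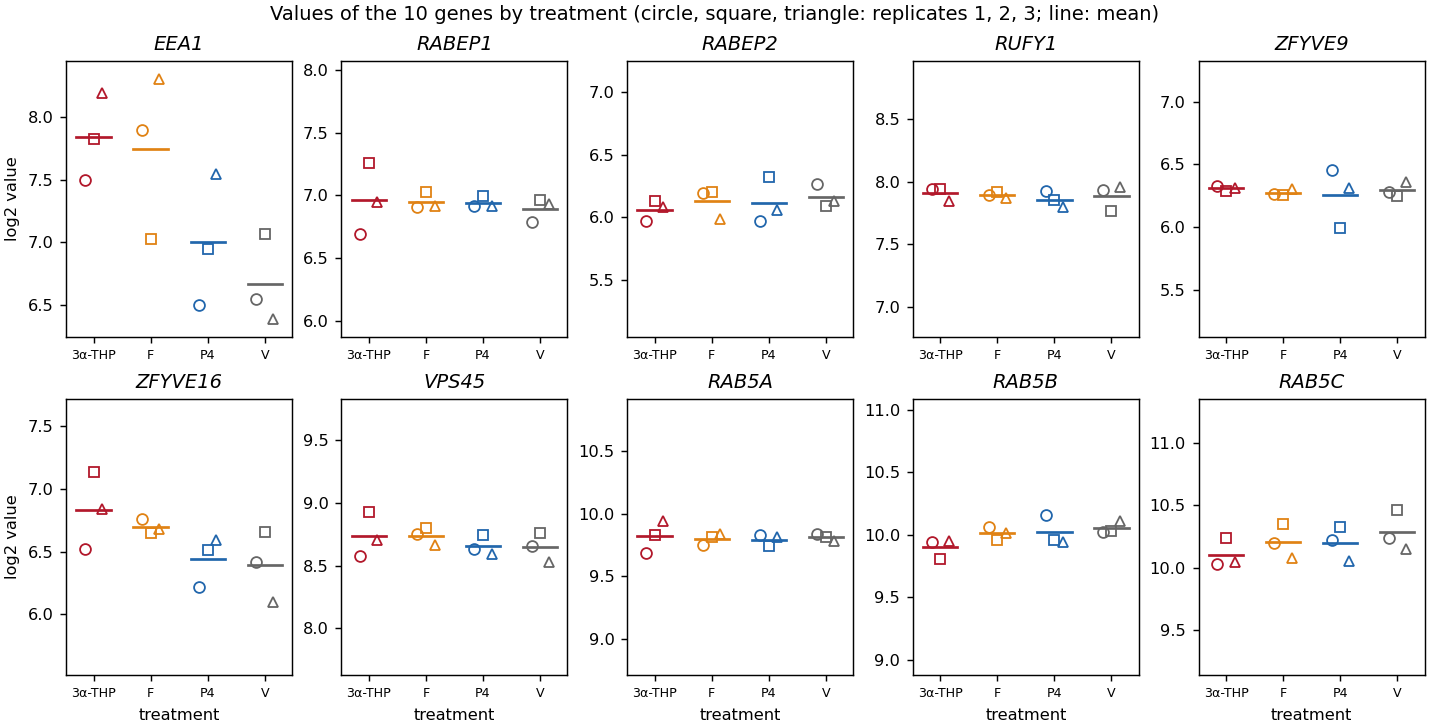
Log2 value (vertical axis) of each of the 10 genes on the 12 arrays by treatment (horizontal axis), each panel spanning the same height, with symbols for the replicate numbers and lines for the means. EEA1 spreads over 1.92 log2 units and ZFYVE16 over 1.04, while each of the other 8 genes spans 0.57 or less.

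The 3 RAB5 genes encode the GTPase that EEA1 binds. RAB5A was 9.69, 9.83 and 9.94 with 3α-THP, 9.75, 9.81 and 9.83 with F, 9.83, 9.74 and 9.81 with P4, and 9.84, 9.82 and 9.78 with V. The treatments overlapped throughout, and 3α-THP differed from V by 0.01 with a 95% interval of -0.17 to 0.18 (limma, adjusted p = 0.993). RAB5B was 9.95, 9.81 and 9.95 with 3α-THP, 10.07, 9.96 and 10.02 with F, 10.16, 9.96 and 9.95 with P4, and 10.02, 10.03 and 10.11 with V. Its 3α-THP arrays all lay under the V arrays, as did those of 7.28% of all tested clusters, and under the F arrays, as in 3.68%. The difference from V was -0.15 with an interval of -0.33 to 0.03 (limma, adjusted p = 0.748). RAB5C was 10.03, 10.24 and 10.05 with 3α-THP, 10.20, 10.35 and 10.08 with F, 10.22, 10.33 and 10.06 with P4, and 10.23, 10.46 and 10.15 with V. On each of the 9 treated arrays it was lower than on its V counterpart, by 0.01 to 0.22. These comparisons share the 3 V arrays, and how many of all clusters did the same was not counted. V replicate 2 was the highest of the 12 arrays. Without it the difference from V was -0.087 with 3α-THP, 0.017 with F and 0.0078 with P4. Over all arrays the difference with 3α-THP was -0.18 with an interval of -0.42 to 0.06 (limma, adjusted p = 0.800). The 3 genes are close relatives, and how far their probes tell them apart was not tested.

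The rabaptins RABEP1 and RABEP2 bind active Rab5 and its activator Rabex-5. RABEP1 was 6.69, 7.26 and 6.95 with 3α-THP, 6.90, 7.03 and 6.91 with F, 6.92, 6.99 and 6.91 with P4, and 6.79, 6.96 and 6.93 with V. RABEP2 was 5.97, 6.13 and 6.08 with 3α-THP, 6.20, 6.20 and 5.99 with F, 5.97, 6.33 and 6.06 with P4, and 6.27, 6.09 and 6.13 with V. In both genes each treatment overlapped V. With 3α-THP the differences from V were 0.07 (95% interval -0.19 to 0.33) for RABEP1 and -0.10 (-0.33 to 0.12) for RABEP2 (limma, adjusted p = 0.950 and 0.899).

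RUFY1 carries a FYVE finger and acts with Rab4 and Rab14, and ZFYVE9 (SARA) presents SMAD proteins to the TGFβ receptor on endosomes. RUFY1 lay between 7.77 and 7.96 over the 12 arrays, the narrowest span of the 10 genes, and differed from V by 0.02 (95% interval -0.15 to 0.19) with 3α-THP. ZFYVE9 was 6.33, 6.29 and 6.31 with 3α-THP, 6.26, 6.26 and 6.30 with F, 6.45, 5.99 and 6.31 with P4, and 6.28, 6.25 and 6.36 with V. Its widest spread was within P4, and it differed from V by 0.01 (-0.21 to 0.24) with 3α-THP.

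VPS45, the Sec1/Munc18 protein that acts on endosomal SNAREs, was 8.58, 8.93 and 8.70 with 3α-THP, 8.75, 8.80 and 8.66 with F, 8.64, 8.74 and 8.59 with P4, and 8.65, 8.76 and 8.53 with V. Its differences from V were 0.09 (95% interval -0.13 to 0.30) with 3α-THP and 0.09 (-0.13 to 0.31) with F (limma, adjusted p = 0.912 and 0.999). With F it was higher than V in 3 of 3 replicates, by 0.04 to 0.13, which was not counted over all clusters. Over the 8 genes other than EEA1 and ZFYVE16, the 95% intervals of all differences from V in the fit without pairing stayed within -0.42 and 0.33, a fold of 0.749 to 1.26. In the fit blocked by replicate number the SEs were smaller for all of them, and RAB5C with 3α-THP then came under an unadjusted p of 0.05 (limma, adjusted p = 0.291).

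**Figure D3:**
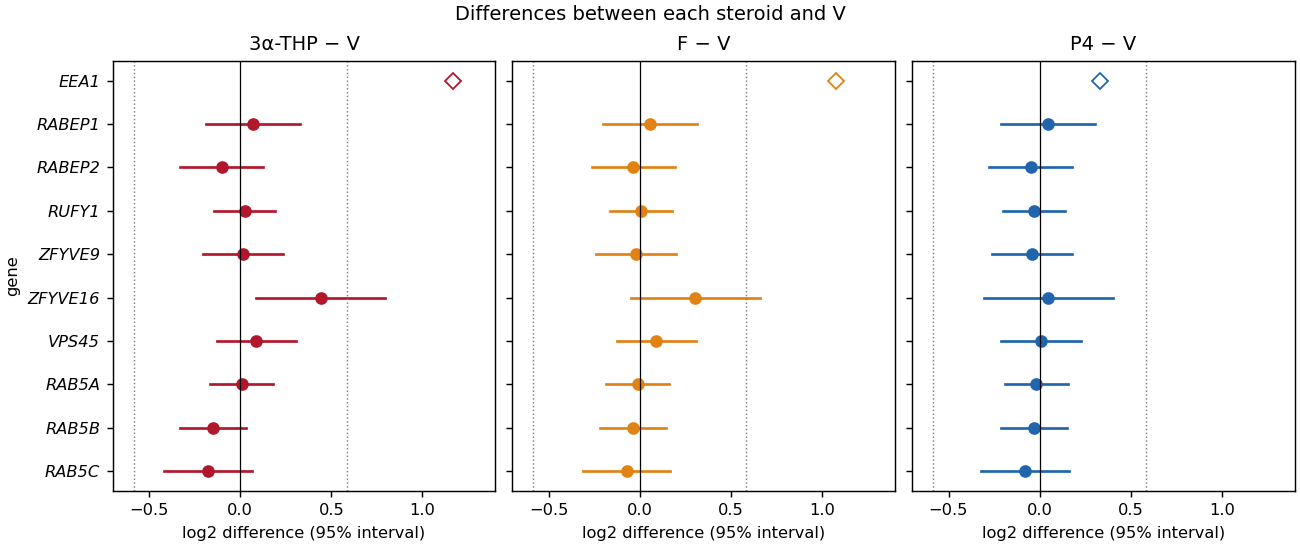
Log2 differences (horizontal axis) of 3α-THP, F and P4 from V for the 10 genes (vertical axis), with 95% intervals from limma for the 9 genes other than EEA1, which is an open diamond without an interval, and dotted lines at a fold of 1.5 either way. EEA1 lies past the line at 1.17 with 3α-THP and 1.08 with F, and the ZFYVE16 interval with 3α-THP, 0.09 to 0.80, does not hold 0.

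ZFYVE16 (endofin), a FYVE-domain protein of early endosomes related to ZFYVE9, had the largest difference with 3α-THP among the 9 genes. It was 6.52, 7.14 and 6.85 with 3α-THP, 6.76, 6.65 and 6.68 with F, 6.22, 6.51 and 6.59 with P4, and 6.42, 6.66 and 6.10 with V. The ranges of 3α-THP and V overlapped, but 3α-THP exceeded V in each replicate, by 0.10, 0.48 and 0.74. The difference was 0.44 (SE 0.16), a fold of 1.36 and so under the threshold (limma, adjusted p = 0.608). In the fit blocked by replicate number its SE was 0.14 (limma, unadjusted p = 0.0080, adjusted p = 0.202). In the fit without pairing the difference was 0.60 without 3α-THP replicate 1, where it passed the threshold. It was 0.29 without 3α-THP replicate 2 and 0.29 without V replicate 3, where the unadjusted p was above 0.05. With F the difference was 0.30 (95% interval -0.05 to 0.66), and within the replicates 0.34, -0.01 and 0.58 (limma, adjusted p = 0.999). With P4 it was 0.05 (-0.31 to 0.40), and within the replicates -0.20, -0.15 and 0.49. As in EEA1, F replicate 2 was level with V, and P4 exceeded V in replicate 3 alone.

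3α-THP and P4 were given at the same dose, 10 nM. 3α-THP is the 5α-reduced, 3α-hydroxylated metabolite of P4. EEA1 averaged 7.84 with 3α-THP and 6.999 with P4, a log2 difference of 0.84 (SE 0.32), and within the replicates it was 1.00, 0.87 and 0.65. EEA1 alone of the 10 genes passed the threshold, beside 0.25% of all clusters, but it was chosen by these 3α-THP arrays and nothing is read from that count. The count was 0 without moderation of the variances and 0 without 3α-THP replicate 3, P4 replicate 1 or P4 replicate 2. ZFYVE16 was higher with 3α-THP than with P4 in 3 of 3 replicates, by 0.30, 0.62 and 0.25, which was not counted over all clusters. Its difference of 0.39 (SE 0.16, 95% interval 0.04 to 0.75) did not reach the fold (limma, adjusted p = 0.999). In the fit blocked by replicate number its adjusted p was 0.464 (limma). Without a limit on the fold, in the fit without pairing, ZFYVE16 was 1 of the 9 genes at an unadjusted p under 0.05, beside 3.96% of all clusters. It missed that p without 3α-THP replicate 2, 3α-THP replicate 3 or P4 replicate 1. The log2 difference was then 0.24, 0.39 and 0.28 (limma, unadjusted p = 0.158, 0.0672 and 0.139). For the other 8 genes the differences ran from -0.12 to 0.08, with 95% intervals within -0.34 and 0.30, a fold of 0.793 to 1.23.

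F was given at 100 nM and cannot be matched by dose with the other agents. Side by side, EEA1 averaged 7.74 with F, 7.84 with 3α-THP and 6.999 with P4. At the threshold 1 of 10 genes, EEA1, passed between F and P4, beside 0.0519% of all clusters, a count that again holds a gene chosen by these arrays and from which nothing is read. It was 0 without moderation of the variances and 0 without P4 replicate 1, P4 replicate 2, F replicate 1 or F replicate 3. Between 3α-THP and F 0 of 10 passed, beside 0.0566%, and for EEA1 that difference was -0.40, 0.80 and -0.11 in the 3 replicates. ZFYVE16 averaged 6.70 with F, 6.83 with 3α-THP and 6.44 with P4. Its F arrays all lay above its P4 arrays, as did those of 3.32% of all clusters.

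The study predicted CREB, CEBP and PXR sites in the promoters of other genes. The promoters of these genes were read here for short motifs only, which does not repeat that prediction, and PXR sites were not searched. Windows from 250 bases before to 50 after the gene start, from RefSeq on GRCh38.p14, matched 9 of the 10 genes in 11 windows, all but RABEP1. Both strands were searched for TGACG, the core of the cAMP-responsive element, and CCAAT, and in these windows no match to one overlapped a match to the other. Shown 5′ to 3′ on the strand of the gene are EEA1 and ZFYVE16, with the largest differences, and RAB5A, with the smallest difference with 3α-THP, and capitals mark each match or its reverse complement. They lie at chr12:92929246-92929545 (minus strand), chr5:80407814-80408113 (plus strand) and chr3:19946847-19947146 (plus strand).
EEA1: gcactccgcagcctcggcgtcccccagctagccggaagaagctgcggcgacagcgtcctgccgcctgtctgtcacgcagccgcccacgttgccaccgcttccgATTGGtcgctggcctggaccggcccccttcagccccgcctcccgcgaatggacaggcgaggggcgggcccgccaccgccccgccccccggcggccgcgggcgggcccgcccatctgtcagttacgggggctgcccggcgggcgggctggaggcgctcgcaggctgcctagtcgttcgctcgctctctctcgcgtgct
ZFYVE16: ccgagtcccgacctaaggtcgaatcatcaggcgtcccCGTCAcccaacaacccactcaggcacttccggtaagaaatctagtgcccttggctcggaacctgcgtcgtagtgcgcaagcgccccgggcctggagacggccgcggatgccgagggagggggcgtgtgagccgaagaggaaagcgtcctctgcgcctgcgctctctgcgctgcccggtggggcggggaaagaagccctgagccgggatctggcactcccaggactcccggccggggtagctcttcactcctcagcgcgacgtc
RAB5A: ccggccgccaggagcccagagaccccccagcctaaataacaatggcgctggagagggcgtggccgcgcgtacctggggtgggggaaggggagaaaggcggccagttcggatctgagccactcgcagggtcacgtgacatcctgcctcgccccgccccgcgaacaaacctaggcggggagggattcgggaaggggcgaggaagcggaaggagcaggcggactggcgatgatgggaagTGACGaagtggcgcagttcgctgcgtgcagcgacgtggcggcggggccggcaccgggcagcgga

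The EEA1 window held 0 matches to TGACG and 1 to CCAAT, on the opposite strand 147 bases before the start. The ZFYVE16 window held 1 match to TGACG, on the opposite strand 213 bases before the start, and 0 to CCAAT. The RAB5A window also held 1 match to TGACG, 14 bases before the start. TGACG occurred in 4 of the 9 matched genes (RABEP2, ZFYVE16, VPS45 and RAB5A) and CCAAT in 6 (EEA1, RABEP2, RUFY1, VPS45, RAB5B and RAB5C). Counted by window, as VPS45 and RAB5B have 2 each, TGACG was in 4 and CCAAT in 7 of the 11. The 2 RAB5B windows overlap and share CCAAT matches, so these are counted in both. Of all 35114 windows of this length 24.6% held TGACG and 34.6% CCAAT. A match is a description of letters, and a CCAAT match is not a predicted CEBP site.

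The remaining machinery of early endosomes was covered by 9 gene lists, in which 127 of 145 listed names, older symbols included, had a measured gene. At the threshold 0 of the 127 passed with 3α-THP, F or P4. Their median difference from V was -0.05 with 3α-THP, 0.00 with F and -0.03 with P4. The difference was positive in 43 (33.9%) with 3α-THP, 59 (46.5%) with F and 48 (37.8%) with P4, beside 41.1%, 41.8% and 43.9% of all clusters. In the fit without pairing, at an unadjusted p under 0.05 with no limit on the fold, 3 were higher and 6 lower with 3α-THP. That is 2.36% and 4.72% of them, beside 3.25% and 4.09% of all clusters. With F 2 were higher and 2 lower, beside 2.58% and 2.11%, and with P4 0 and 1, beside 0.914% and 0.905%.

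The 19 lipid kinases, phosphatases and their partners that set PI3P and related lipids held the gene nearest to the threshold. PIK3C2A, a class II PI3-kinase of clathrin-mediated uptake, was 9.08, 9.35 and 9.26 with 3α-THP, 9.16, 9.07 and 9.30 with F, 8.59, 8.87 and 9.10 with P4, and 8.46, 9.08 and 8.47 with V. V replicate 2 lay well above the other V arrays and level with the lowest 3α-THP and F arrays. The difference was 0.56 with 3α-THP, 0.51 with F and 0.18 with P4 (SE 0.17 each; limma, adjusted p = 0.474, 0.911 and 1.00). Without V replicate 2, and likewise without 3α-THP replicate 1, 1 of the 19 genes passed the threshold in a comparison with V. INPP4B, a phosphatase of phosphatidylinositol 3,4-bisphosphate, differed by 0.36 with 3α-THP, and BECN1, a subunit of the class III PI3-kinase complex, by -0.25 (limma, adjusted p = 0.636 and 0.658). The list median was 0.03 with 3α-THP, and 12 of its 19 genes had a positive difference.

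Among 16 genes of retromer, sorting nexins and the WASH complex, which builds actin on endosomes, the WASH subunit WASHC4 differed most. It was 8.94, 9.29 and 9.15 with 3α-THP, 9.03, 9.08 and 9.17 with F, 8.72, 8.71 and 8.98 with P4, and 8.73, 8.92 and 8.57 with V. All arrays with 3α-THP and with F lay above all V arrays, as in 4.02% and 3.6% of all clusters. Its differences from V were 0.39 with 3α-THP and 0.35 with F (SE 0.12 each; limma, adjusted p = 0.492 and 0.911). SNX17, a sorting nexin of recycling, differed by -0.18 with 3α-THP and VPS26B, a retromer subunit, by -0.18 (limma, adjusted p = 0.623 and 0.624).

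Of 11 activators and inactivators of Rab5, USP6NL, a GTPase-activating protein for Rab5, had the smallest p with 3α-THP. It was 6.56, 6.67 and 6.54 with 3α-THP, 6.67, 6.81 and 6.60 with F, 6.69, 6.68 and 6.50 with P4, and 6.76, 7.07 and 6.75 with V. The arrays with 3α-THP and with P4 lay under all V arrays, the second as in 3.47% of all clusters. Its differences were -0.27 with 3α-THP and -0.23 with P4 (SE 0.10 each; limma, adjusted p = 0.612 and 1.00). TBC1D2B, which has a Rab GTPase-activating domain, and RIN1, a Rab5 activator, differed by -0.25 and -0.25 with 3α-THP (limma, adjusted p = 0.694 and 0.737). The list median was -0.07.

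In the other lists the 3 genes with the smallest p with 3α-THP differed from V as follows. Among 21 other FYVE-domain genes they were ZFYVE21 (-0.15), RUFY2 (0.20) and ZFYVE19 (-0.23), with a list median of -0.06. Among 9 genes of the tethering complexes CORVET, which binds Rab5 on early endosomes, and HOPS, which acts on the later route to the lysosome, they were VPS11 (-0.17), VPS18 (-0.22) and VPS8 (0.12), with a median of -0.05. Among 15 SNARE genes, of which 2 had a positive difference, they were STX10 (-0.16), VAMP3 (-0.12) and STX12 (-0.11), with a median of -0.08. Among 13 other Rab and APPL genes they were RAB11B (-0.14), RAB31 (-0.13) and APPL1 (0.15), with a median of -0.02. Among 14 ESCRT genes, which sort cargo for degradation, they were MVB12A (-0.25), VPS25 (-0.18) and VPS37D (-0.14), with a median of -0.07. Among 9 receptors carried through endosomes, of which 0 had a positive difference, they were the TGFβ receptor TGFBR2 (-0.27, and -0.32 against P4), M6PR (-0.20) and TGFBR1 (-0.06), with a median of -0.07. The adjusted p in limma against V was 0.608 or higher for each of these genes.

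**Figure D4:**
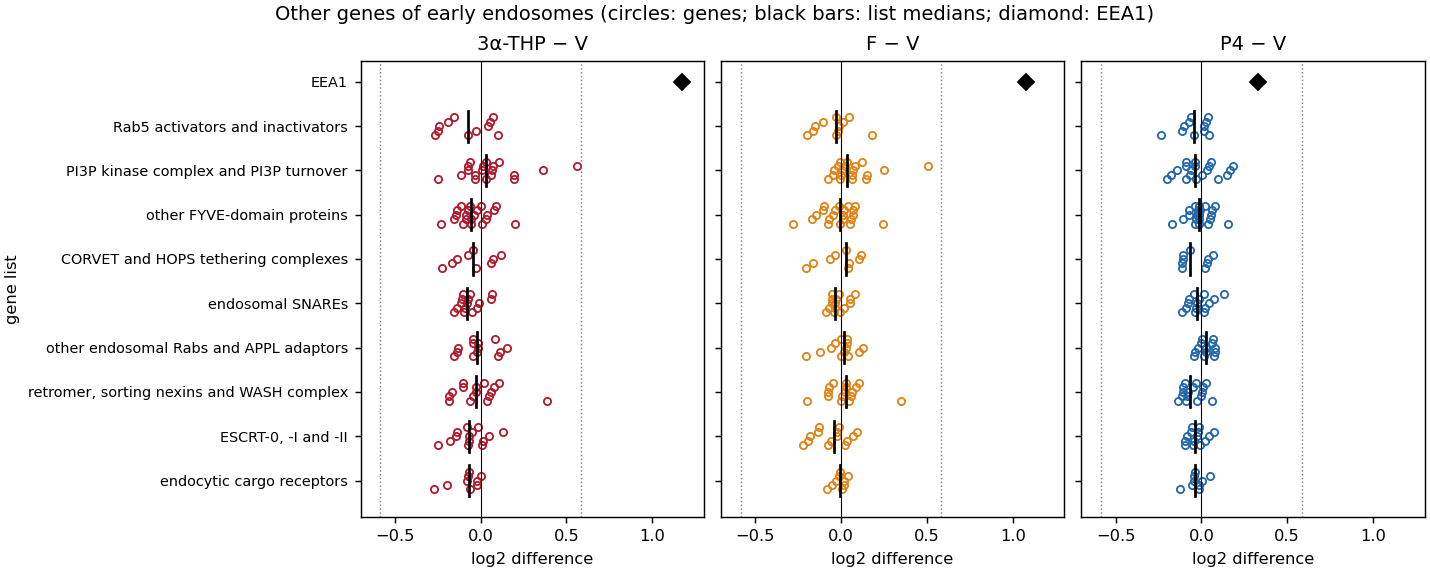
Log2 differences (horizontal axis) of 3α-THP, F and P4 from V for the genes of 9 lists of endosomal machinery (vertical axis), with circles for genes, black bars for list medians, a diamond for EEA1 and dotted lines at a fold of 1.5 either way. The listed genes stay inside the dotted lines, with PIK3C2A nearest at 0.56 with 3α-THP and 0.51 with F, while EEA1 lies at 1.17 and 1.08.

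The values most like those of EEA1 over the 12 arrays were sought among the 19460 clusters with a single gene. The 5 with the highest Pearson correlation were PPIG, a nuclear cyclophilin (r = 0.986), BOD1L1, a protein of replication forks (r = 0.985), both clusters of BDP1, a subunit of the RNA polymerase III factor TFIIIB (r = 0.984 each), and CCDC88A, the actin-binding girdin (r = 0.983). Spearman's rho was 0.958 to 0.979, and with the mean of each replicate number removed r was 0.981 to 0.988. In all, 129 clusters other than EEA1 had r over 0.9, while the median over the 19460 was -0.10. The arrays share treatments, experiments and normalization, and the 5 were picked for their likeness, so these are descriptions. Differences of 3α-THP from V were 0.88 for PPIG, 0.98 for BOD1L1, 0.70 and 0.71 for BDP1 and 1.36 for CCDC88A. Those of F from V were 0.74 for PPIG, 0.79 for BOD1L1, 0.58 and 0.59 for BDP1 and 1.07 for CCDC88A.

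Of the 9 other tethering genes ZFYVE16 followed EEA1 most closely, at r = 0.779 (Spearman's rho 0.881) over the 12 arrays, above 98.2% of the clusters with a single gene, and at 0.918 with the means of the replicate numbers removed. Without the 2 arrays farthest from the median of EEA1, F replicate 3 and 3α-THP replicate 3, it was 0.833. VPS45 had r = 0.308, and 0.715 with those means removed. RAB5B had -0.508, and -0.610 with them removed, and RAB5C -0.460 and -0.566. Before removal, r was above that of 85.5% of the clusters with a single gene for VPS45, 10.3% for RAB5B and 13.6% for RAB5C. No such share was taken with the means removed. The other 5 genes lay between -0.30 and 0.24, and between -0.25 and 0.21 with the means removed. These are again descriptions over the same arrays.

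**Figure D5:**
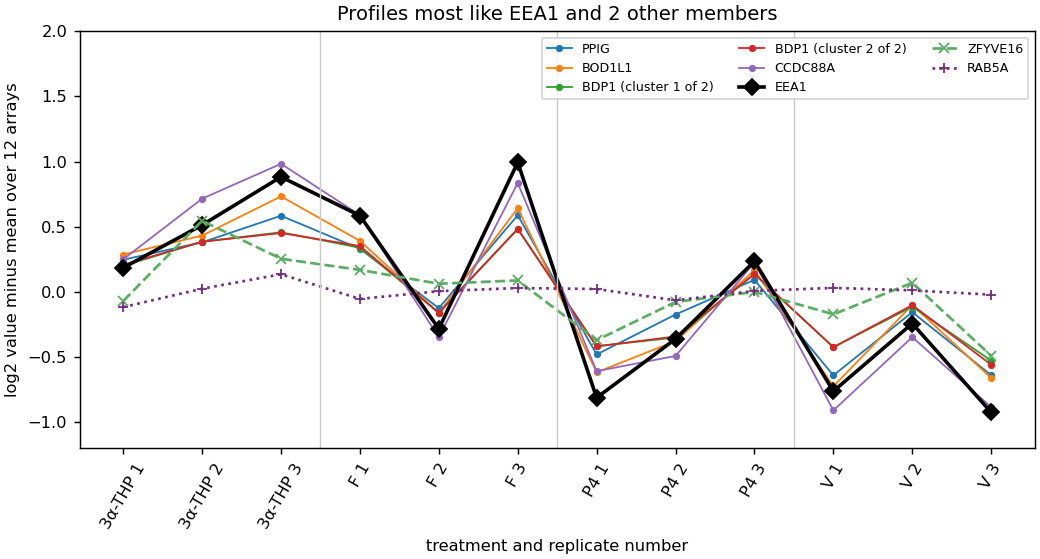
Log2 value minus the mean over the 12 arrays (vertical axis) on each array (horizontal axis, by treatment and replicate number) for EEA1, the 5 clusters most like it, ZFYVE16 and RAB5A. The 5 clusters follow EEA1 on each array. ZFYVE16 follows in part, with a smaller span, and lies on the other side of 0 on arrays such as V replicate 2 and F replicate 2. RAB5A, with a span of 0.25, stays near 0.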

How the data were processed

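Total RNA of U87 cells was measured in 3 samples per treatment. The table deposited by the authors holds normalized log2 values, one for each transcript cluster. The submitters' processing notes name Affymetrix Expression Console 1.4, the methods name quantile normalization and RMA, and which made this table is not given in the sources used here. Of 33297 clusters, the 21214 with a gene in the platform annotation were tested (19460 with 1 gene, 1754 with several). The number of arrays limits the precision.

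limma 3.58.1 (R 4.3.3) was run on all 12 arrays with a mean for each treatment and moderated variances, without pairing, and p-values were adjusted over all tested clusters (Benjamini-Hochberg). The code was tested on simulated data. The genes and lists were chosen with earlier results of these data known. A listed gene was read from its brightest single-gene cluster, and from each list the text names any gene that passed and the 3 of smallest p with 3α-THP. The 5 clusters most correlated with EEA1 are also named. Replicate numbers paired the samples. Deviations from the treatment means correlated at 0.132 to 0.631 (median 0.400) in all 18 pairs of the same number. In the 36 other pairs they ran from -0.604 to 0.226 (median -0.25). Those values are pulled down because the 3 deviations of a treatment cancel. P-values set each difference against the spread between samples of the same treatment. In the fit without pairing that spread includes differences between replicate numbers. Alternatives were a fixed or random replicate block, a fit of only the treatments compared, an unmoderated ANOVA, quantile normalization, dim clusters (mean under 6) left out, array weights, a variance trend, no fold limit and each array left out. Protein sequences were not used here.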

Additional observations from a re-analysis of the deposited data

How the results depend on the processing

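The 3 arrays per treatment limit the precision, and detection above background could not be judged from the table. With 1 array left out, EEA1 differed from V by 0.99 to 1.37 with 3α-THP and by 0.79 to 1.43 with F. The count of the 10 genes past the threshold was then 1 to 2 with 3α-THP, 0 to 1 for 3α-THP against P4 and for F against P4, and 0 to 1 in the PI3P list over the 3 comparisons with V. The replicate number as a fixed or random block changed no count past the threshold, of the 10 genes or of a list. Without a limit on the fold, more listed genes came under an unadjusted p of 0.05 with the fixed block and 3α-THP. Examples are RIN1 and VPS18, lower than V (limma, unadjusted p = 0.0069 and 0.016), and PIKFYVE, higher (limma, unadjusted p = 0.040). With the fixed block, RAB5C with 3α-THP (-0.18) and ZFYVE16 with F (0.30) came under an unadjusted p of 0.05. ZFYVE16 with F also did so with array weights (0.48), without V replicate 2 (0.44) and without the 4 arrays of number 2 (0.46). For F against P4, ZFYVE16 (0.26) did so in the fit of only those treatments. With the unmoderated ANOVA the counts for 3α-THP against P4 and F against P4 were 0 and 0. With array weights 2 of the 10 genes passed with 3α-THP, and 1 of the PI3P list in a comparison with V. With no limit on the fold, 2 passed with 3α-THP and 2 for 3α-THP against P4, and over the 3 comparisons with V the lists had 3 (PI3P), 3 (retromer) and 1 each (Rab5 regulators, FYVE, ESCRT and receptors). Leaving out the 4 arrays of number 2, chosen after seeing the data, gave 1 in the PI3P list and 1.63 for EEA1 with F.

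Some differences changed sign. RAB5A with F was 0.00162 after quantile normalization. With array weights RUFY1 was -0.041 with 3α-THP and -0.041 with F, and ZFYVE9 -0.017 with 3α-THP. Without the arrays of number 2, RABEP1 was -0.042 and RUFY1 -0.052 with 3α-THP, RUFY1 -0.066 with F, ZFYVE9 0.064 and RAB5A 0.0098 with P4, and 3α-THP minus F -0.26 for EEA1 and -0.036 for ZFYVE16. Leaving out 1 array at a time turned the sign of the following. For 3α-THP against V the range was -0.077 to 0.21 for RABEP1, -0.035 to 0.058 for RUFY1, -0.0092 to 0.045 for ZFYVE9, -0.0091 to 0.17 for VPS45 and -0.053 to 0.073 for RAB5A. For F against V the range was -0.074 to 0.033 for RABEP2, -0.053 to 0.040 for RUFY1, -0.045 to 0.0090 for ZFYVE9, -0.031 to 0.010 for RAB5A and -0.14 to 0.017 for RAB5C. For P4 against V the range was -0.0056 to 0.081 for RABEP1, -0.15 to 0.026 for RABEP2, -0.088 to 0.0052 for RUFY1, -0.14 to 0.087 for ZFYVE9, -0.098 to 0.18 for ZFYVE16, -0.051 to 0.063 for VPS45, -0.036 to 0.0076 for RAB5A, -0.099 to 0.0084 for RAB5B and -0.15 to 0.0078 for RAB5C. For 3α-THP against F the range was -0.26 to 0.38 for EEA1 and -0.014 to 0.29 for ZFYVE16. The cause was not tested. Each gene had 1 cluster, so no other cluster of it could be tried.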
